A study of Mus musculus with 16 samples.

Results

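SR-3420, a ligand of the lipase co-activator ABHD5 that starts lipolysis inside the adipocyte, was compared with its absence across 3 inhibitor arms: 8 samples with SR-3420 against 8 without it. The arm (no inhibitor, triacsin C or etomoxir) and the replicate number entered as covariates, membership followed from the treatment alone, and 16 of the 16 samples of the series were used. The cells were wild-type BAT-LgT, a mouse brown preadipocyte line immortalised with SV40 large T antigen and differentiated to day 7 in culture. They received vehicle (DMSO), 5 µM triacsin C or 50 µM etomoxir for 1 h and then SR-3420 or no SR-3420 for 3 h. The labels give SR-3420 at 10 µM and the study's figure legends give another dose, so its dose is uncertain. Vehicle and SR-3420 alone had 2 samples each, and the 4 groups with an inhibitor (triacsin C or etomoxir, each without and with SR-3420) had 3 samples each. The line is a single immortalised population, and the study calls its replicates independent experiments, so p-values measure the spread between these samples. Total counts ran from 9452861 to 25670624 per sample, with a median of 12489019 without SR-3420 and of 15966455 with it.

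In a brown adipocyte, ABHD5 is held at the lipid droplet by perilipin, and once released it activates ATGL (the product of Pnpla2), which removes the first fatty acid from stored triglyceride. Freed fatty acids are joined to coenzyme A by acyl-CoA synthetases, the enzymes triacsin C inhibits, and enter mitochondria through carnitine palmitoyltransferase 1, which etomoxir inhibits. Fatty acids also serve as ligands of PPAR transcription factors, which control genes of lipid storage and oxidation. A gene that responds to SR-3420 in all 3 arms responds where acyl-CoA formation or mitochondrial import is inhibited as well as where neither is.

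SR-3420 raised 3807 genes (29.8% of the 12786 tested) and lowered 3856 (30.2%) at an adjusted p under 0.05 in edgeR's quasi-likelihood test. The median log2 fold change (log2FC, with against without SR-3420) over all genes tested was 0.00, with quartiles of -0.40 and 0.33, and the median standard error (SE) was 0.11. At least 2-fold changes were fewer: 488 genes were higher (3.82%) and 802 lower (6.27%). Of these, 450 and 621 moved in the same direction in all 7 pairs of samples with the same arm and replicate number. A test against a change of 2-fold itself, in place of a 2-fold estimate that passes the test against 0, kept 203 higher and 102 lower genes. Genes with large rises included Areg, Gm13889, Ch25h, Has1 and Lif, while 14 of 21 lipase and lipid droplet genes, 20 of 25 of cholesterol synthesis and 70 of 75 respiratory chain subunits fell. Among genes whose 8 samples with SR-3420 did not overlap the 8 without it, 801 were higher (6.26%) and 668 lower (5.22%).

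**Figure D1:**
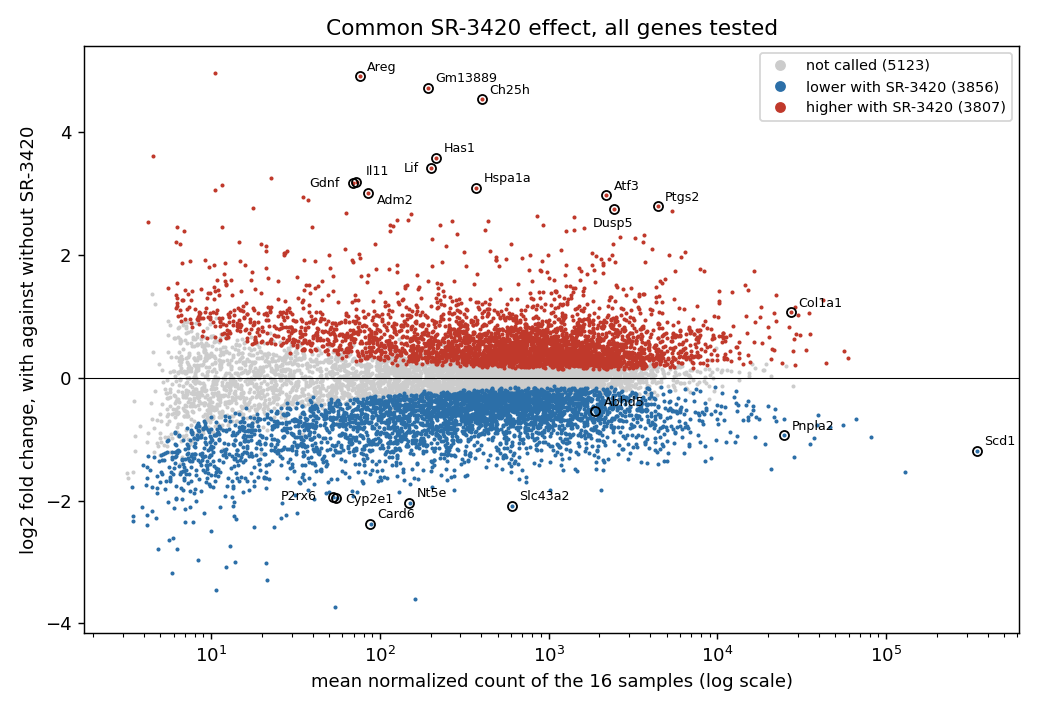
The common effect for the 12786 genes tested: the horizontal axis is the mean normalized count of the 16 samples on a log scale, the vertical axis is the log2 fold change, red points were called higher, blue points lower and grey points not called, and circles mark labelled genes. Areg, Gm13889 and Ch25h lie above 4 on the vertical axis at mean counts between 10 and 1000, and Scd1 is the labelled gene with the highest mean count.

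The samples separated by SR-3420 along the first principal component, which held 37.3% of the variance. Samples with SR-3420 lay between -1.97 and 58.8 on it, and samples without lay between -48.9 and -11.4, so that the groups did not overlap. SR-3420 alone replicate 1 was the nearest of the treated samples to the untreated ones. Component 2 (27.5%) spread replicates of the same group, and component 3 (14.2%) set triacsin C alone, at -43.0 to -30.3, below the other samples. The 10 most abundant genes took 7.84% to 9.19% of the counts without SR-3420 and 4.24% to 7.14% with it.

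**Figure D2:**
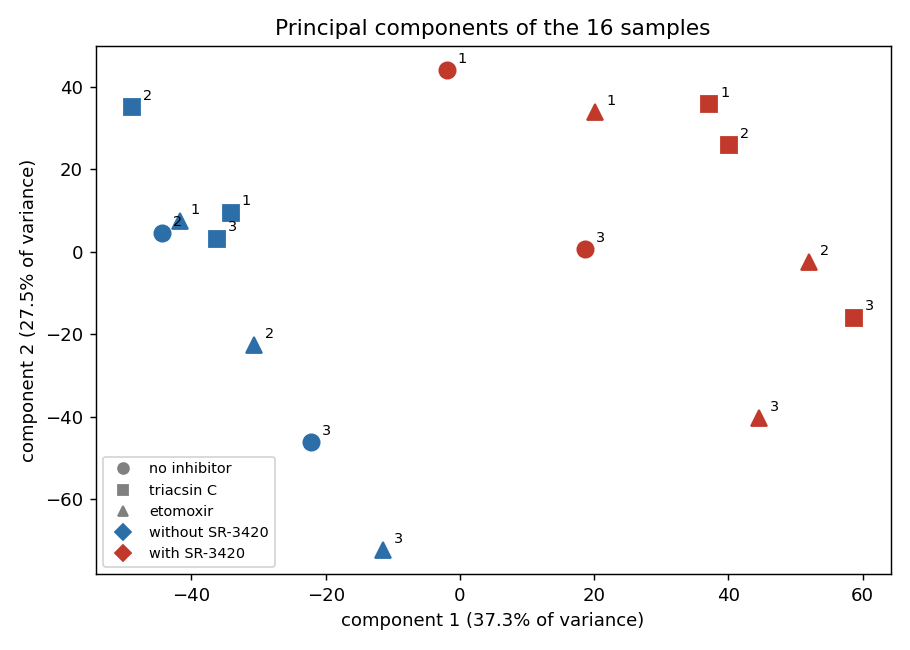
Positions of the 16 samples on components 1 and 2 of log2 normalized counts; circles, squares and triangles are the no-inhibitor, triacsin C and etomoxir arms, blue is without and red is with SR-3420, and the digit is the replicate number. All 8 samples with SR-3420 lie to the right of all 8 without it.

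Markers of cell state moved along with SR-3420. Over all genes tested, 29.8% were higher, 30.2% lower and 5.69% lower in all 3 arms. All 12 mature adipocyte markers fell in the common effect (median log2FC -0.87), 3 of them in all 3 arms, with medians of -0.41 with no inhibitor, -1.25 with triacsin C and -0.84 with etomoxir. Among them were Adipoq (log2FC -1.29, SE 0.14, adjusted p = 1.86e-06) and Fabp4 (log2FC -0.97, SE 0.12, adjusted p = 4.10e-06). Their summed level, in normalized counts per kilobase, was 384174 to 611583 without SR-3420 (median 489303) and 143712 to 426445 with it (median 206120.4), and Fabp4 was the most abundant. All 10 of the preadipocyte and fibroblast markers tested, out of 13 listed, rose (median log2FC 0.71, 0.58 without the etomoxir arm). Their summed level was 5295 to 12004 without SR-3420 (median 9128) and 10798 to 20504 with it (median 16405), and the most abundant was Col1a1. In bulk RNA, fewer adipocytes, less adipocyte RNA per cell and lower transcription of these genes cannot be told apart, and the part of this shift in the results that follow was not tested.

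The label brown adipocyte was checked against its markers. Ucp1, the uncoupling protein of brown fat, was low, with 6.40 to 36.0 normalized counts (median 20.6) in the samples without SR-3420 and 29.1 to 50.8 (median 39.1) in those with it. The groups overlapped, and Ucp1 rose (log2FC 0.94, SE 0.27, adjusted p = 0.00611). The 3 markers Dio2, Zic1 and Lhx8 never exceeded 2, 5 and 6 counts and were not tested, while Cidea had a log2FC of 0.24 (SE 0.20, adjusted p = 0.31) and Prdm16 one of 0.02 (SE 0.16, adjusted p = 0.936). Of the 9 brown markers tested 2 rose, 2 fell and 5 did not pass (22.2% each way, beside 29.8% higher and 30.2% lower over all genes), with a median log2FC of -0.05 that was 0.33 without the triacsin C arm. Their summed level per kilobase was 4356 to 8663 without SR-3420 (median 6018) and 2304 to 5398 with it (median 2856), mostly Cox8b. Markers of other cell types varied: Ptprc, Emr1, Pecam1, Cdh5 and Ckm had at most 16, 3, 13, 10 and 3 counts in any sample, while Cd68, Cd14, Acta1, Des, Vwf, Myod1 and Kdr reached 241, 127, 149, 126, 98, 93 and 50. Of the 4 macrophage markers tested (of 11) 2 fell and 0 rose, with a median log2FC of -0.38 (0.18 without the triacsin C arm), the 2 endothelial markers tested (of 8) rose, and of the 3 muscle markers tested (of 9) 1 rose and 1 fell. The median summed levels per kilobase were 138 without and 136 with SR-3420 for the macrophage list (most abundant Cd68), 9.67 and 13.2 for the endothelial list (Kdr) and 95.9 and 91.4 for the muscle list (Acta1).

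Each arm gave an estimate of the response from samples that the others do not use, although the arms share the estimate of spread and the replicate terms. With no inhibitor, the vehicle samples were replicates 2 and 3, and those with SR-3420 were replicates 1 and 3. Only replicate 3 was on both sides there, so values of this arm also rest on replicate terms that the other arms help to estimate. With no inhibitor 1423 genes rose (11.1%) and 1015 fell (7.94%), with triacsin C 3515 rose (27.5%) and 3670 fell (28.7%), and with etomoxir 2897 rose (22.7%) and 2879 fell (22.5%). The median SE was 0.19 with no inhibitor, where each side had 2 samples, and 0.15 in each of the other arms. In all 3 arms 1094 genes rose (8.56%) and 727 fell (5.69%). Without the replicate number in the model these were 523 and 269, and fits that each left out 1 sample gave 520 to 1404 and 219 to 1126, both lowest without replicate 3 of SR-3420 alone. For 1336 genes (10.4%) every sample with SR-3420 lay above every sample without it in each of the 3 arms, and for 1137 (8.89%) below. Of the genes of at least 2-fold in the common effect, 343 of 488 higher and 300.0 of 802 lower genes were called in all 3 arms.

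Genes called in 2 arms were looked up in the remaining arm. Of the 1121 genes raised both with no inhibitor and with triacsin C, 1094 (97.6%) rose with etomoxir, and of the 746 lowered in both, 727 (97.5%) fell. Of the 1316 raised with no inhibitor and with etomoxir, 83.1% rose with triacsin C and 13 fell. Of the 933 lowered in the same pair of arms, 77.9% fell with triacsin C and 34 rose. Of the 2108 raised with triacsin C and with etomoxir, 51.9% rose with no inhibitor (median log2FC there 0.52), and of the 2152 lowered in both, 33.8% fell (median -0.45). The genes called in all 3 arms had median log2FCs of 0.77, 0.79 and 0.86 (higher) and of -0.77, -1.03 and -0.89 (lower) with no inhibitor, triacsin C and etomoxir. Across the 12786 genes, which are not independent replicates, the log2FCs of the arms had Pearson correlations of 0.54 (no inhibitor with triacsin C), 0.77 (no inhibitor with etomoxir) and 0.73 (triacsin C with etomoxir).

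**Figure D3:**
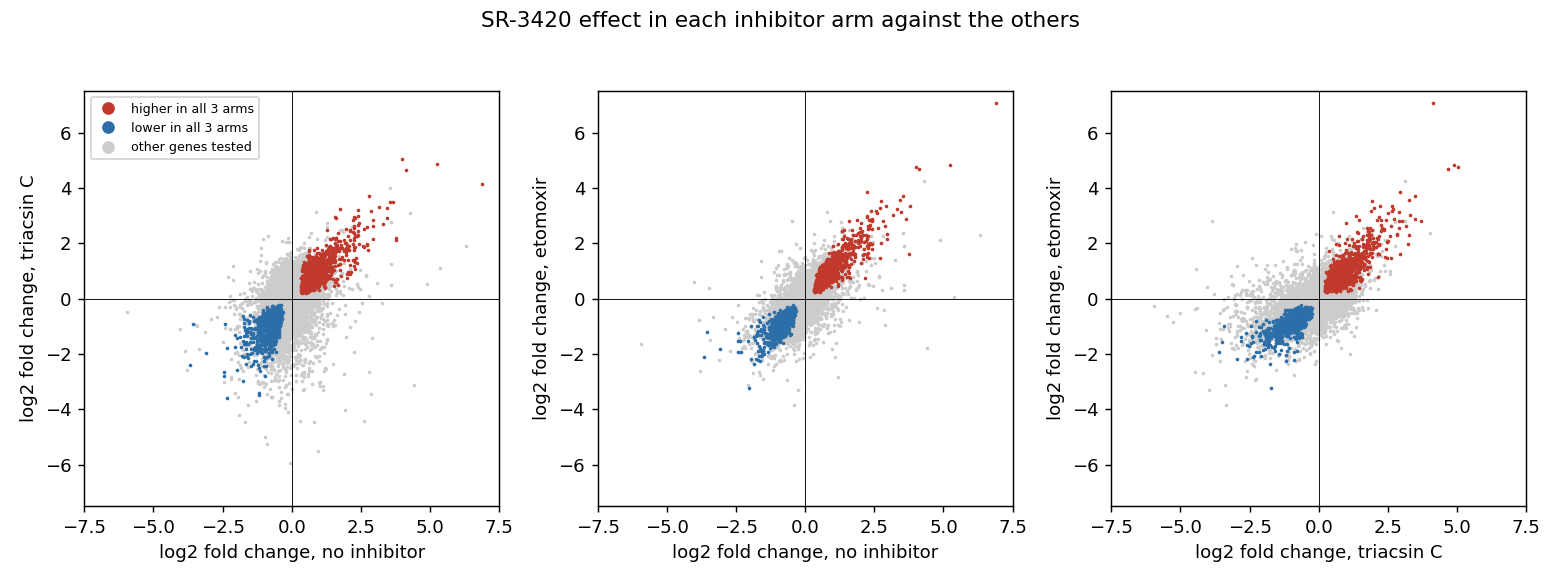
The log2 fold change of SR-3420 in each arm against that in another arm, for the 12786 genes tested; red and blue points were called higher and lower in all 3 arms and grey points were not. The triacsin C arm holds genes that fell there and lie near 0 with no inhibitor.

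The responses of 1258 genes (9.84%) differed between arms by the interaction test, a number that was 298 without the replicate number in the model and 482 to 4495 in fits that left out 1 sample (lowest without replicate 1 of triacsin C plus SR-3420, highest without replicate 1 of triacsin C). Among the 1821 genes called in all 3 arms, 124 (6.81%) also had an interaction, so that they moved one way everywhere but by different amounts. Of the 55 such genes that fell, the fall was largest with triacsin C for 49 and smallest with no inhibitor for 46. Of the 69 that rose, the rise was largest with triacsin C for 31, etomoxir for 21 and no inhibitor for 17, and smallest for 33, 12 and 24. In different arms, 161 genes were called in opposite directions, and 159 of them had an interaction. A further 585 genes passed in the common effect without passing in any single arm.

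Genes are named below by size of change among those that averaged 50 or more normalized counts and whose treated and untreated samples did not overlap in any arm, and, from gene lists, by the largest changes. Each gene named below that passed moved in its direction in all 7 pairs, apart from Fabp9 and Pmp2. Among the leading rises were those of secreted ligands. Areg (RefSeq NM_009704, mm9 chromosome 5 from 91568641 to 91577458, plus strand) encodes amphiregulin, a ligand of the EGF receptor, and had 0.914 to 9.86 normalized counts (median 5.08) in the samples without SR-3420 and 58.1 to 277 (median 138) in those with it. No untreated sample reached the lowest treated one, and the highest were the 3 samples with triacsin C and SR-3420. Its fold was 30.2 (log2FC 4.92, SE 0.22, adjusted p = 1.16e-10), and by arm the log2FC was 5.25 with no inhibitor, 4.88 with triacsin C and 4.82 with etomoxir. Lif, a cytokine of the interleukin 6 family (mm9 chromosome 11 from 4157571 to 4172517, plus strand), had 17.9 to 70.2 normalized counts without SR-3420 (median 32.6) and 239 to 537 with it (median 348). Its groups did not overlap, and the log2FC of 3.41 (SE 0.12, adjusted p = 8.13e-12) split into 3.43 with no inhibitor, 3.26 with triacsin C and 3.55 with etomoxir. Il11, of the same cytokine family, had 6.40 to 28.5 normalized counts without SR-3420 (median 16.4) and 57.3 to 238 with it (median 125), without overlap (log2FC 3.19, SE 0.17, adjusted p = 5.54e-10). Gdnf, a neurotrophic factor that acts through the receptor RET, had 8.96 to 17.9 normalized counts without SR-3420 (median 14.2) and 59.9 to 188 with it (median 115), again without overlap (log2FC 3.17, SE 0.17, adjusted p = 5.33e-10). Adm2, a peptide of the calcitonin family, had 7.68 to 38.9 normalized counts without SR-3420 (median 15.3) and 101 to 223 with it (median 143) and a log2FC of 3.01 (SE 0.15, adjusted p = 2.08e-10); its groups did not overlap.

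Of the 13 members of the EGF family tested (ligands, receptors and their regulators), 7 rose, 4 fell and 2 did not pass, with a median log2FC of 0.40 (29.8% higher and 30.2% lower over all genes), which was 1.04 without members that overlap another gene. Ereg, which encodes epiregulin, had 225 to 689 normalized counts without SR-3420 (median 386) and 1134 to 4298 with it (median 2495). The groups were apart (log2FC 2.62, SE 0.14, adjusted p = 7.72e-10). Hbegf, which encodes a heparin-binding ligand, had 375 to 767 normalized counts without SR-3420 (median 508) and 2034 to 3307 with it (median 2870.3), also apart (log2FC 2.43, SE 0.08, adjusted p = 3.09e-12). Errfi1, an inhibitor of EGF receptors, rose as well (log2FC 1.48, SE 0.14, adjusted p = 2.42e-07). Adam17, the protease that sheds several of these ligands and whose gene overlaps Iah1, did not pass (log2FC 0.14, SE 0.06, adjusted p = 0.0575).

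Among enzymes, Ch25h (NM_009890, mm9 chromosome 19 from 34548274 to 34549625, minus strand), which makes 25-hydroxycholesterol, had 18.3 to 42.7 normalized counts (median 36.1) in the samples without SR-3420 and 404 to 1137 (median 784) in those with it. Every treated sample was above every untreated one. The fold was 23.3 (log2FC 4.54, SE 0.13, adjusted p = 2.13e-12), and by arm the log2FC was 4.12 with no inhibitor, 4.66 with triacsin C and 4.69 with etomoxir. Has1, a synthase of hyaluronan in the cell coat, had 16.1 to 52.2 normalized counts without SR-3420 (median 36.0) and 229.6 to 575 with it (median 400.2) without overlap (log2FC 3.58, SE 0.13, adjusted p = 8.13e-12). Ptgs2, the inducible cyclooxygenase of prostaglandin synthesis, had 543 to 1626 normalized counts without SR-3420 (median 1008) and 2487 to 15325 with it (median 7032). The treated samples with triacsin C were the highest and the groups did not overlap (log2FC 2.79, SE 0.11, adjusted p = 3.48e-11). Gm13889, a gene without an assigned function here, had 2.98 to 25.6 normalized counts without SR-3420 (median 15.2) and 126 to 638 with it (median 384) and no overlap (log2FC 4.73, SE 0.23, adjusted p = 2.22e-10).

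**Figure D4:**
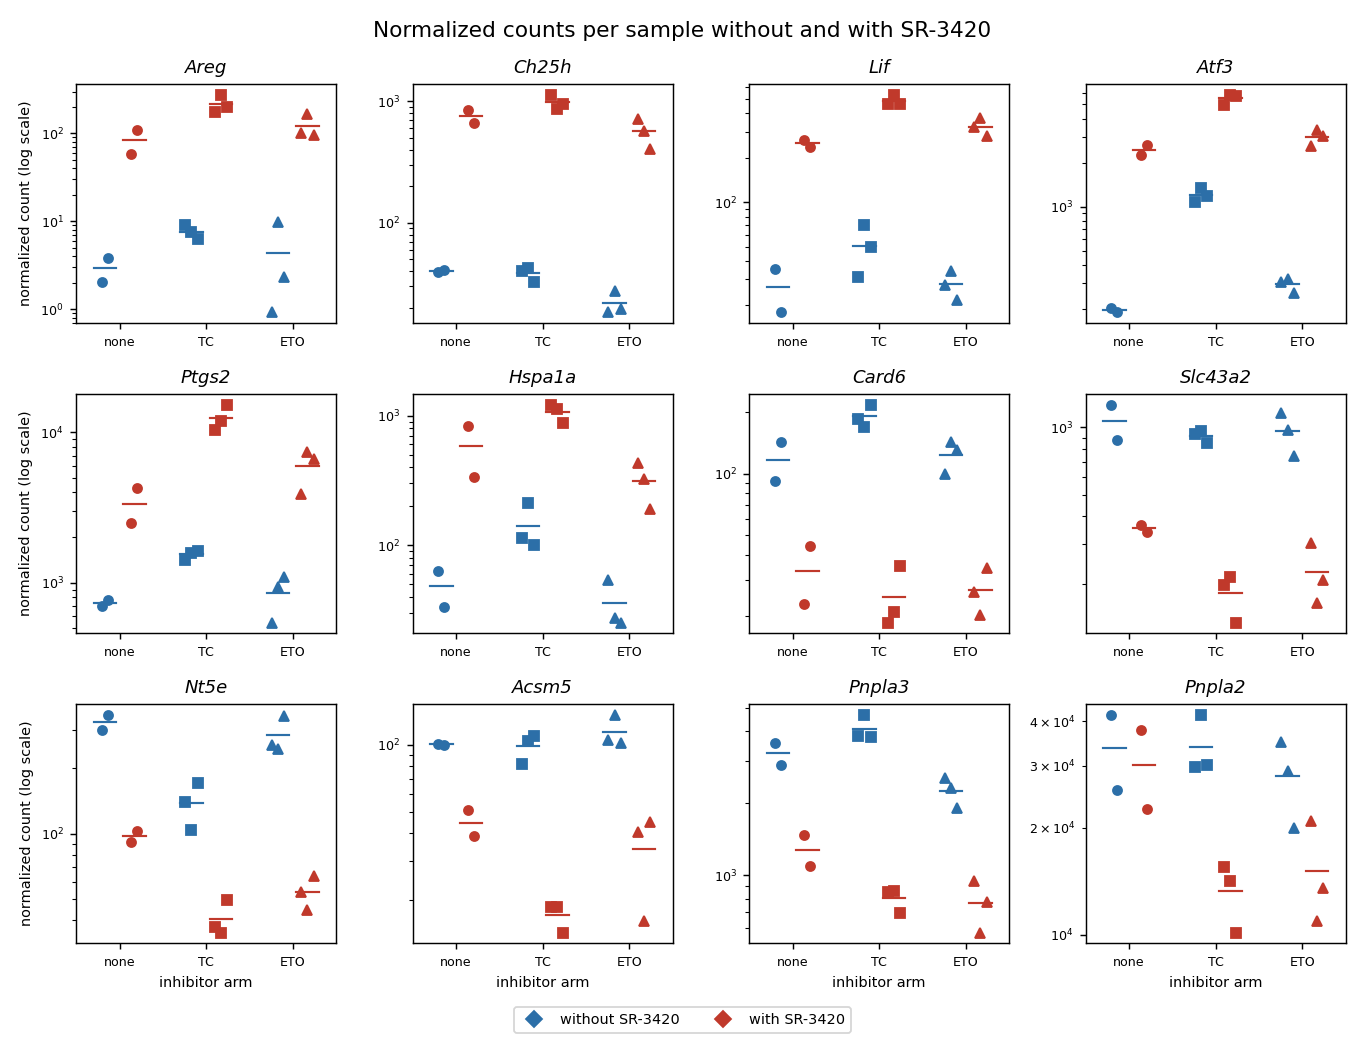
Normalized counts on a log scale in each sample by arm (none, TC for triacsin C, ETO for etomoxir), blue without and red with SR-3420, with lines at group means for 12 genes. In each arm the red points of Areg, Ch25h, Lif, Atf3, Ptgs2 and Hspa1a lie above the blue ones and those of Card6, Slc43a2, Nt5e, Acsm5 and Pnpla3 below, while those of Pnpla2 overlap with no inhibitor and with etomoxir.

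The promoters of 6 of these leading genes are shown because Areg, Ch25h and Has1, 3 of the 4 leading rises, hold the same short element. The promoter of the remaining one, Gm13889, was not at hand and was not searched. The 250 bases before the annotated start (RefSeq, build GRCm38.p6) were searched on both strands for 8 motifs, chosen with these results known, in the 10167 tested genes (79.5%) whose promoter was at hand. The cAMP response element TGACGTCA stands in Areg (chr5:91139349-91139598, plus strand), Ch25h (chr19:34475149-34475398, minus strand) and Has1 (chr17:17855189-17855438, minus strand), where capitals mark it. In Areg and Ch25h capitals also mark the letters TATAAA of the TATA box motif, but the layout differs. In Areg they lie between the cAMP response element and the gene start, and in Ch25h they lie upstream of that element. Whether either match acts as a TATA box was not tested. Lif (chr11:4257318-4257567, plus strand) holds the AP-1 site TGAGTCA on the opposite strand, Atf3 (chr1:191183334-191183583, minus strand) the ATF4-CEBP composite TGATGNAA on the opposite strand, and Hspa1a (chr17:34972157-34972406, minus strand) the heat shock element GAANNTTC, each in capitals.
Areg: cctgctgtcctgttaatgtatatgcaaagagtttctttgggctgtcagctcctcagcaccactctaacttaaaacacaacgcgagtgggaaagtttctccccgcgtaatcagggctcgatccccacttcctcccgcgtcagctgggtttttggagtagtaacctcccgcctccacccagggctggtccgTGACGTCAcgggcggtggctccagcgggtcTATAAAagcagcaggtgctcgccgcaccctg
Ch25h: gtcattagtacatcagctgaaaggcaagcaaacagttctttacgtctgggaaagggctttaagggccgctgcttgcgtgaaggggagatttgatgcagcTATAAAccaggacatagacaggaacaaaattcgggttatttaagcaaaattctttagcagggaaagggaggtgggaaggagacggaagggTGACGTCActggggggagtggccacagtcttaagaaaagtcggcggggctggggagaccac
Has1: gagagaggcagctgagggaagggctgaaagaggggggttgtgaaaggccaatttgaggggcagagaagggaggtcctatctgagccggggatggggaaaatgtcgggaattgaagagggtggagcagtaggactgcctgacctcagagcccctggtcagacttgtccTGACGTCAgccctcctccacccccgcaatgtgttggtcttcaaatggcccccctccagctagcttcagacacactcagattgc
Lif: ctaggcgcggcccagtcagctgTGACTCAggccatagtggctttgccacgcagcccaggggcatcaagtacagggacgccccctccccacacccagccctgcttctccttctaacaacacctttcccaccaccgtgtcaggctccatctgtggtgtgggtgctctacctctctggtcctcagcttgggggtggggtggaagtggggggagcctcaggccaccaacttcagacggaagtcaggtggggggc
Atf3: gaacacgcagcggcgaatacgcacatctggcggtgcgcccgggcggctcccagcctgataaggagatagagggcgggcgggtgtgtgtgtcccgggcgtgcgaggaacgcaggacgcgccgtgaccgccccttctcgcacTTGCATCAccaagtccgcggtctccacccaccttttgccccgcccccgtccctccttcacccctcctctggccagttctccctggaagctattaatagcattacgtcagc
Hspa1a: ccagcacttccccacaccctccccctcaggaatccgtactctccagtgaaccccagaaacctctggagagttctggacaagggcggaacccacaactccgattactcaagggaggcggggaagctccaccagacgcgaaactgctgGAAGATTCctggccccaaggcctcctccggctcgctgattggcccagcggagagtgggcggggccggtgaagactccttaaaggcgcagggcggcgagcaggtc

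Over all tested genes with a promoter, TGACGTCA stood in 2.79%, against 4.12% of those of genes higher by at least 2-fold, 1.47% of those of genes lower by at least 2-fold, 3 of the 11 at hand for the 12 leading rises, and 1 of 8 for the 12 leading falls (Pnpla3). TGAGTCA stood in 3.02% of all, 7.97% of the higher and 3.91% of the lower, TGATGNAA in 1.96%, 3.85% and 2.93%, and TATAAA in 6.34%, 10.7% and 8.63%. The heat shock element GAANNTTC stood in 4.95%, 3.85% and 7.17%, the E-box CACGTG in 8.44%, 7.42% and 5.37%, the antioxidant element TGACNNNGC in 12.04%, 15.1% and 12.4%, and CCAAT in 36.8%, 32.4% and 39.6%. For genes higher in all 3 arms and lower in all 3 arms, the shares were 2.68% and 1.78% for the cAMP response element, 4.89% and 2.84% for the AP-1 site, 3.03% and 2.31% for the composite, and 8.15% and 7.10% for the TATA box. They were 4.66% and 5.68% for the heat shock element, 8.85% and 6.39% for the E-box, 15.1% and 9.95% for the antioxidant element, and 34.9% and 47.2% for the CCAAT box. TGAGTCA and TGACNNNGC can overlap. A match describes letters only, and binding was not measured.

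Genes of the immediate early class, mainly transcription factors, rose as a group. Of 27 tested, 26 rose, 0 fell and 1 did not pass, with a median log2FC of 1.73, beside 29.8% higher and a median of 0.00 over all genes. In all 3 arms 23 rose, beside 8.56% of all genes. Egr1, a zinc finger factor, had 1235 to 1619.7 normalized counts without SR-3420 (median 1370.3) and 7043 to 12705 with it (median 9017). The groups did not overlap (log2FC 2.72, SE 0.09, adjusted p = 3.09e-12). Fosb, an AP-1 subunit, had 21.9 to 72.1 normalized counts without SR-3420 (median 38.7) and 144 to 381 with it (median 259), without overlap (log2FC 2.58, SE 0.12, adjusted p = 1.14e-10), and its relative Fos rose by a log2FC of 2.06 (SE 0.16, adjusted p = 2.91e-08). Of the orphan nuclear receptors, Nr4a3 had 6.40 to 23.7 normalized counts without SR-3420 (median 18.9) and 49.0 to 174 with it (median 105), log2FC 2.68 (SE 0.17, adjusted p = 4.50e-09). Nr4a1 had 169 to 347 normalized counts without SR-3420 (median 305) and 829 to 1335 with it (median 1101), log2FC 1.96 (SE 0.10, adjusted p = 2.39e-10). Neither had overlapping groups. The remaining member, Klf10, was not called (log2FC 0.37, SE 0.17, adjusted p = 0.0624): its log2FC was 0.68 with no inhibitor, -0.34 with triacsin C and 0.91 with etomoxir, and the arms differed (interaction adjusted p = 0.00106).

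Atf3, a factor of the same class and of the integrated stress response (mm9 chromosome 1 from 192994180 to 193007212, minus strand), had 189 to 1336 normalized counts (median 312) in the samples without SR-3420 and 2267 to 5841 (median 3187) in those with it. The groups did not overlap, and the untreated samples with triacsin C were the highest of the 8. Its common log2FC was 2.98 (SE 0.19, adjusted p = 4.01e-09), and by arm it was 3.77 with no inhibitor, 2.20 with triacsin C and 3.33 with etomoxir, with an interaction adjusted p of 0.000168 that was 0.00503 without the replicate number in the model.

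Feedback inhibitors of MAP kinase rose in 15 of 18 cases, with 1 lower and a median log2FC of 0.97 (0.80 without the no-inhibitor arm). That is 83.3% higher and 5.56% lower, beside 29.8% and 30.2% over all genes tested. Dusp5, a nuclear phosphatase of ERK, had 382 to 1139 normalized counts without SR-3420 (median 659) and 2860.1 to 5964 with it (median 4085), without overlap (log2FC 2.76, SE 0.13, adjusted p = 1.16e-10). Spry2, an inhibitor of receptor tyrosine kinase signalling, had 321 to 701 normalized counts without SR-3420 (median 433) and 1689 to 2924 with it (median 2405), log2FC 2.402 (SE 0.09, adjusted p = 1.06e-11). Dusp1, a phosphatase of several MAP kinases, had 567 to 1912 normalized counts without SR-3420 (median 954) and 2694 to 9326 with it (median 4882), log2FC 2.28 (SE 0.09, adjusted p = 3.48e-11). Both were without overlap. Spry1 did not pass, with a log2FC of -0.24 (SE 0.10, adjusted p = 0.0548). Of 14 Krüppel-like factors, 8 rose, 2 fell and 4 did not pass, with a median log2FC of 0.54. Their shares were 57.1% higher and 14.3% lower, beside the same 29.8% and 30.2%. Klf4 had 261 to 792 normalized counts without SR-3420 (median 384) and 1184 to 2726 with it (median 1915), log2FC 2.08 (SE 0.10, adjusted p = 1.25e-10). Klf5 had 76.8 to 206 normalized counts without SR-3420 (median 116) and 346 to 747 with it (median 525), log2FC 2.05 (SE 0.10, adjusted p = 2.22e-10). There was no overlap in either. Klf6 and Klf2 rose with log2FCs of 1.31 and 1.28, and Klf13, which overlaps another gene, had one of 0.21 and did not pass (adjusted p = 0.0739). Targets of cAMP and CREB, 19 tested, counted 12 higher, 3 lower, 4 not past the threshold, median log2FC 0.39. These targets were 63.2% higher and 15.8% lower, beside 29.8% and 30.2% over all genes tested. They included the phosphodiesterase gene Pde10a (log2FC 1.41, SE 0.17, adjusted p = 3.14e-06), while Pde3b, of the insulin-regulated phosphodiesterase, did not pass (log2FC -0.18, SE 0.14, adjusted p = 0.285). Fos, Nr4a1 and Nr4a3 are on this list as well as on the immediate early list, and falls in this list reached a log2FC of -0.88.

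Inflammatory and NF-kB feedback genes counted 18 higher, 2 lower, 4 not past the threshold, median log2FC 0.61, of 24 tested, 12 of them higher in all 3 arms. Over all genes tested, 29.8% were higher, 30.2% lower and 8.56% higher in all 3 arms. Il6 had 1.83 to 17.9 normalized counts without SR-3420 (median 7.22) and 22.9 to 122 with it (median 51.3), low but without overlap (log2FC 2.94, SE 0.29, adjusted p = 5.10e-07). Icam1, an adhesion molecule, was near the limit of detection, at 1.15 to 9.14 normalized counts without SR-3420 (median 6.61) and 8.11 to 22.9 with it (median 16.6); its groups overlapped (log2FC 1.43, SE 0.37, adjusted p = 0.00377). Nfkbia, the inhibitor that NF-kB itself induces, did not pass (log2FC -0.23, SE 0.10, adjusted p = 0.0711).

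The integrated stress response, in which ATF4 raises genes of amino acid supply, moved in 39 of 41 members: 36 higher, 3 lower, 2 not past the threshold, median log2FC 0.82, with 28 higher in all 3 arms. Of all genes tested, 29.8% were higher, 30.2% lower and 8.56% higher in all 3 arms. Slc7a11, the cystine transporter, had 46.7 to 209 normalized counts without SR-3420 (median 107) and 257 to 1700.1 with it (median 691), without overlap (log2FC 2.55, SE 0.21, adjusted p = 7.64e-08). Stc2, a secreted glycoprotein of this response, had 23.0 to 43.1 normalized counts without SR-3420 (median 38.9) and 133 to 248 with it (median 189), also without overlap (log2FC 2.38, SE 0.12, adjusted p = 2.77e-10). Gdf15, a circulating stress hormone, had 357 to 2486 normalized counts without SR-3420 (median 1237) and 3232 to 10635 with it (median 5787); the groups did not overlap (log2FC 2.33, SE 0.13, adjusted p = 1.40e-09). Eif4ebp1, a translation repressor on the list, did not pass (log2FC -0.16, SE 0.09, adjusted p = 0.108). Cytosolic aminoacyl-tRNA synthetases, which charge tRNA for translation, counted 17 higher, 0 lower, 3 not past the threshold, median log2FC 0.53, of 20 tested (85% higher, beside the same 29.8%). Sars (log2FC 0.92, SE 0.06, adjusted p = 1.03e-08) and Nars (log2FC 0.90, SE 0.07, adjusted p = 1.92e-08) were the members with the largest rises, followed by Cars (0.83) and Tars (0.75). Mars, which overlaps the stress gene Ddit3, did not pass (log2FC -0.15, SE 0.08, adjusted p = 0.107).

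Of 44 endoplasmic reticulum chaperone and degradation genes tested, 17 rose, 4 fell and 23 did not pass, with a median log2FC of 0.17; 38.6% were higher, beside 29.8% over all genes. Hspa5, the chief chaperone of that compartment, had 11601 to 18763 normalized counts without SR-3420 (median 13015) and 21954 to 37089 with it (median 29839.5), without overlap (log2FC 1.05, SE 0.08, adjusted p = 5.09e-08). Ero1l, an oxidase of disulfide formation, had 428 to 1117 normalized counts without SR-3420 (median 685) and 1426 to 4679.9 with it (median 2794), log2FC 2.03 (SE 0.12, adjusted p = 1.37e-09). Atf6, a sensor of unfolded protein, had a log2FC of 1.02 (SE 0.13, adjusted p = 5.21e-06). By arm, Atf6 had log2FCs of 0.64 with no inhibitor, 1.57 with triacsin C and 0.71 with etomoxir (interaction adjusted p = 0.00143, 0.00983 without the replicate number in the model). Derl3, of the degradation branch, fell (log2FC -1.11, SE 0.17, adjusted p = 5.64e-05). It was low, with a mean of 33.9 normalized counts over the 16 samples, and was not called in all 3 arms. The abundant chaperone Calr did not pass (log2FC 0.16, SE 0.07, adjusted p = 0.0528). Established markers of the unfolded protein response, as listed by the study, counted 18 higher, 1 lower, 5 not past the threshold, median log2FC 1.05, of 24 tested.

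Cytosolic heat shock proteins counted 16 higher, 3 lower, 14 not past the threshold, median log2FC 0.26, of 33 tested. By share, 48.5% were higher and 9.09% lower, beside 29.8% and 30.2% over all genes tested. Hspa1a, the inducible HSP70, had 25.3 to 212 normalized counts (median 58.4) in the samples without SR-3420 and 192 to 1219 (median 629) in those with it. In each arm treated samples were above untreated ones, but over all arms the groups overlapped through 1 untreated sample with triacsin C, its replicate 2 (log2FC 3.10, SE 0.16, adjusted p = 4.59e-10). Hspa1b, nearly identical in sequence so that reads of the pair may be assigned to either, rose too (log2FC 1.87, SE 0.14, adjusted p = 2.60e-08). Hspb1 had 52.9 to 412 normalized counts without SR-3420 (median 101) and 155 to 732 with it (median 352), log2FC 1.27 (SE 0.15, adjusted p = 2.50e-06). Hspa1l fell (log2FC -0.91, SE 0.17, adjusted p = 0.000282) and Fkbp4 did not pass (log2FC -0.06, SE 0.07, adjusted p = 0.427). Of 31 NRF2 targets of antioxidant defence tested, 8 rose, 19 fell and 4 did not pass, with a median log2FC of -0.51; 25.8% were higher and 61.3% lower, beside 29.8% and 30.2% over all genes. The glutathione transferases Gstm1 (log2FC -1.25, SE 0.11, adjusted p = 1.97e-07) and Gsta3 (log2FC -1.61, SE 0.27, adjusted p = 9.20e-05) fell. Gsta3 was low, with a mean of 14.5 normalized counts over the 16 samples, and was not called in all 3 arms. Ugdh, which makes UDP-glucuronate, rose (log2FC 1.24, SE 0.11, adjusted p = 1.27e-07), and Txn1 did not pass (log2FC -0.10, SE 0.08, adjusted p = 0.249).

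Hypoxia-inducible and glycolytic genes counted 22 higher, 2 lower, 8 not past the threshold, median log2FC 0.66, of 32 tested, with medians of 0.94 with no inhibitor, 0.39 with triacsin C and 0.89 with etomoxir. By share, 68.75% were higher and 6.25% lower, beside 29.8% and 30.2% over all genes tested. Slc2a1, the glucose transporter GLUT1, had 1551 to 3486 normalized counts without SR-3420 (median 2694) and 7558 to 12346 with it (median 10545), without overlap (log2FC 2.06, SE 0.09, adjusted p = 1.14e-10). Slc16a3, which exports lactate, had 86.2 to 432 normalized counts without SR-3420 (median 207) and 765 to 1115 with it (median 949), likewise (log2FC 2.17, SE 0.19, adjusted p = 1.20e-07). Ndrg1 rose by a log2FC of 2.00 (SE 0.13, adjusted p = 7.10e-09). Car9, a carbonic anhydrase, was low, at 1.49 to 7.10 normalized counts without SR-3420 (median 5.37) and 11.6 to 30.2 with it (median 26.3), and its groups did not overlap (log2FC 2.22, SE 0.25, adjusted p = 2.20e-06). Aldoa, of glycolysis, did not pass (log2FC 0.02, SE 0.13, adjusted p = 0.891).

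Of 22 core clock genes, 13 rose, 4 fell and 5 did not pass, with a median log2FC of 0.39, which was 0.19 without the triacsin C arm. By share, 59.1% were higher and 18.2% lower, beside 29.8% and 30.2% over all genes tested. Ciart, a repressor of the clock, had 43.5 to 157 normalized counts without SR-3420 (median 76.6) and 180.0 to 474 with it (median 306), without overlap (log2FC 1.81, SE 0.13, adjusted p = 1.89e-08). Per3 fell where Per1 rose. Per3 had 919 to 1494 normalized counts without SR-3420 (median 1143) and 411 to 638 with it (median 515), log2FC -1.16 (SE 0.08, adjusted p = 6.19e-09). Per1 had 362 to 609.7 normalized counts without SR-3420 (median 519) and 785 to 1056 with it (median 928), log2FC 0.87 (SE 0.07, adjusted p = 1.03e-07). In both the groups did not overlap. Bhlhe40, another repressor, rose (log2FC 1.26, SE 0.17, adjusted p = 1.01e-05), and the kinase gene Csnk1d did not pass (log2FC 0.08, SE 0.06, adjusted p = 0.266).

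The target of SR-3420 and its lipase were themselves lower in the common effect, though neither was called in all 3 arms. Abhd5 had 1907 to 2691 normalized counts (median 2129.8) in the samples without SR-3420 and 1199 to 2027 (median 1477) in those with it. The groups overlapped, and all 7 pairs were lower with SR-3420 (log2FC -0.54, SE 0.07, adjusted p = 1.08e-05), with log2FCs of -0.30 with no inhibitor, -0.66 with triacsin C and -0.56 with etomoxir. Pnpla2, which encodes ATGL, had 19947 to 41765 normalized counts without SR-3420 (median 29894) and 10134 to 37719 with it (median 14866). SR-3420 alone replicate 1 was the highest treated sample, the groups overlapped and all 7 pairs were lower (log2FC -0.93, SE 0.17, adjusted p = 0.00017). Its log2FC was -0.26 with no inhibitor, -1.38 with triacsin C and -0.86 with etomoxir. Among lipase and lipid droplet genes, 21 tested, 2 rose, 14 fell and 5 did not pass (9.52% higher and 66.7% lower, beside 29.8% and 30.2% over all genes). The median log2FC was -0.64. By arm that median was -0.21 with no inhibitor, -0.84 with triacsin C and -0.77 with etomoxir. In all 3 arms 2 members were lower, beside 5.69% of all genes tested. An interaction was found for 7, beside 9.84% of all genes, by a test whose total falls from 1258 to 298 without the replicate number. Hilpda, an inhibitor of ATGL, had 151 to 413 normalized counts without SR-3420 (median 185) and 1002 to 1830.4 with it (median 1452), without overlap (log2FC 2.63, SE 0.18, adjusted p = 8.78e-09). Plin2, the coat protein of small droplets, rose with a log2FC of 1.505 (SE 0.12, adjusted p = 3.89e-08). Pnpla3, a relative of ATGL, had 1906 to 4694 normalized counts without SR-3420 (median 3233) and 577 to 1467 with it (median 853) and fell without overlap (log2FC -1.83, SE 0.15, adjusted p = 4.99e-08). Cidec, which enlarges droplets, fell (log2FC -1.09, SE 0.19, adjusted p = 0.000142), and G0s2, another inhibitor of ATGL, did not pass (log2FC 0.48, SE 0.21, adjusted p = 0.055).

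PPAR targets split in direction: of 46 tested, 10 rose, 26 fell and 10 did not pass. That is 21.7% higher and 56.5% lower, beside 29.8% and 30.2% over all genes tested. Their median log2FC was -0.58, and by arm it was -0.01 with no inhibitor, -0.86 with triacsin C and -0.51 with etomoxir. An interaction was found for 22 of them, beside 9.84% of all genes tested, by a test whose total falls to 298 without the replicate number. Fgf21, a hormone, had 7.68 to 48.2 normalized counts without SR-3420 (median 41.3) and 128 to 195 with it (median 142), without overlap (log2FC 2.17, SE 0.21, adjusted p = 3.72e-07), with a log2FC by arm of 3.76 with no inhibitor, 2.13 with triacsin C and 1.62 with etomoxir (interaction adjusted p = 0.00243, 0.00605 without the replicate number in the model). Angptl4, an inhibitor of lipoprotein lipase, had 2659 to 8693 normalized counts without SR-3420 (median 5390.3) and 12504 to 16282 with it (median 15179), without overlap (log2FC 1.42, SE 0.14, adjusted p = 4.77e-07). Pdk4, which restrains pyruvate oxidation, had a common log2FC of 1.58 (SE 0.14, adjusted p = 1.27e-07). These members were named by size of change and rose, while falls in the list reached a log2FC of -1.40.

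Most listed genes of fat and sterol synthesis fell. In lipogenesis and triglyceride synthesis, 25 tested, 1 rose, 19 fell and 5 did not pass, with a median log2FC of -0.58. That is 4% higher and 76% lower, beside 29.8% and 30.2% over all genes tested. Scd1, the desaturase that makes oleate, had 382584 to 546689 normalized counts (median 483967) in the samples without SR-3420 and 135892 to 307950.5 (median 194582) in those with it. No treated sample reached the lowest untreated one (log2FC -1.19, SE 0.13, adjusted p = 1.90e-06), and its share of all counts was 2.79% to 4.23% without and 1.02% to 2.26% with SR-3420. Gpam, of the first step of glycerolipid synthesis, had 3653 to 9016 normalized counts without SR-3420 (median 5611) and 1595 to 5126 with it (median 2244), with overlap (log2FC -1.18, SE 0.10, adjusted p = 7.38e-08). Slc25a1, the citrate carrier, fell (log2FC -1.05, SE 0.13, adjusted p = 5.34e-06), and Acacb did not pass (log2FC -0.03, SE 0.11, adjusted p = 0.804). In cholesterol synthesis, 25 tested, 0 rose, 20 fell and 5 did not pass (80% lower, beside the same 30.2%), with a median log2FC of -0.58. An interaction was called for 0 of them, beside 9.84% of all genes tested, by a test whose total falls from 1258 to 298 without the replicate number. A gene that misses that threshold is not shown to respond alike in the arms. Dhcr7, of the last step, had 1033 to 1479 normalized counts without SR-3420 (median 1295) and 326 to 858 with it (median 495), without overlap (log2FC -1.35, SE 0.10, adjusted p = 2.32e-08). Mvd and Mvk of the mevalonate pathway fell, with log2FCs of -1.12 (SE 0.13) and -0.89 (SE 0.11). Tm7sf2, which overlaps Vps51, fell too (-1.23), and the regulator Srebf2 did not pass (log2FC 0.05, SE 0.07, adjusted p = 0.527).

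A list of LXR targets and related genes (the receptors and Ch25h among them), 13 tested, counted 2 higher, 8 lower, 3 not past the threshold, median log2FC -0.46. By share, 15.4% were higher and 61.5% lower, beside 29.8% and 30.2% over all genes tested. Ch25h was among the higher. Apoe, the lipoprotein component, had 15392 to 46127 normalized counts without SR-3420 (median 31479) and 6552 to 21722 with it (median 9964), with overlap (log2FC -1.49, SE 0.19, adjusted p = 8.55e-06). Smpdl3a had 251 to 319.6 normalized counts without SR-3420 (median 299.9) and 98.6 to 179.7 with it (median 123), without (log2FC -1.14, SE 0.10, adjusted p = 1.47e-07). Nr1h2, which encodes LXR beta, did not pass (log2FC -0.21, SE 0.11, adjusted p = 0.101).

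Respiratory chain subunits encoded in the nucleus fell in 70 of 75 cases and rose in none (median log2FC -0.61). By arm the medians were -0.25 with no inhibitor, -0.93 with triacsin C and -0.47 with etomoxir. An interaction was called for 23 members, by the same test and beside the same 9.84%, and 10 members were lower in all 3 arms (5.69% of all genes tested). Sdha, of complex II, had 13764 to 20013 normalized counts without SR-3420 (median 17092) and 7218 to 12689 with it (median 8386), without overlap (log2FC -0.95, SE 0.11, adjusted p = 3.58e-06). Cox8b, a complex IV subunit of brown fat and muscle, had 1119.7 to 2468 normalized counts without SR-3420 (median 1658) and 474 to 843 with it (median 587), also without overlap (log2FC -1.43, SE 0.15, adjusted p = 7.78e-07). Ndufv3 of complex I fell (log2FC -0.81, SE 0.12, adjusted p = 4.03e-05), and Ndufb7 did not pass (log2FC -0.37, SE 0.16, adjusted p = 0.0574). Brown fat identity genes, 20 tested, counted 2 higher, 7 lower, 11 not past the threshold, median log2FC -0.10, beside 29.8% higher and 30.2% lower over all genes tested. Their medians differed in sign by arm (0.24 with no inhibitor, -0.53 with triacsin C and -0.14 with etomoxir). An interaction was called for 8, beside 9.84% of all genes tested, and that test's total falls to 298 without the replicate number. Adrb3, the adrenergic receptor of adipocytes, had 4243 to 11887 normalized counts without SR-3420 (median 6689) and 1863 to 10735 with it (median 2994), with overlap (log2FC -0.90, SE 0.15, adjusted p = 0.000105). Pank1 fell (log2FC -0.84, SE 0.12, adjusted p = 3.01e-05) and Esrra, which overlaps Trmt112, did not pass (log2FC -0.14, SE 0.10, adjusted p = 0.254). Ppargc1a, the coactivator of mitochondrial genes, did not pass either (log2FC -0.13, SE 0.12, adjusted p = 0.353).

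Adipokine and adipogenic genes, 16 tested, counted 4 higher, 8 lower, 4 not past the threshold, median log2FC -0.46 (all genes: 29.8% higher, 30.2% lower). Retn, which encodes resistin, had 5121 to 9607 normalized counts without SR-3420 (median 7167) and 1998 to 4514 with it (median 2581), without overlap (log2FC -1.36, SE 0.13, adjusted p = 4.36e-07). Cfd, which encodes adipsin, fell with overlap (log2FC -1.54, SE 0.24, adjusted p = 5.45e-05), and Nampt did not pass (log2FC 0.04, SE 0.10, adjusted p = 0.767). Insulin signalling and FOXO genes, 23 tested, counted 7 higher, 8 lower, 8 not past the threshold, median log2FC -0.18, with a median of 0.00649 without the etomoxir arm. That is 30.4% higher and 34.8% lower, beside 29.8% and 30.2% over all genes tested. Sesn1, which restrains mTORC1, had 498 to 685 normalized counts without SR-3420 (median 553) and 241 to 355 with it (median 285), without overlap (log2FC -0.99, SE 0.07, adjusted p = 2.16e-08), while the receptor substrate Irs1 fell (log2FC -0.80, SE 0.08, adjusted p = 3.82e-07). Gadd45a (log2FC 1.07, SE 0.10, adjusted p = 2.26e-07) and the coregulator Cited2 (log2FC 0.79, SE 0.07, adjusted p = 7.56e-08) rose. Irs2 did not pass (log2FC -0.28, SE 0.20, adjusted p = 0.223), with log2FCs of 0.51 with no inhibitor, -1.04 with triacsin C and 0.02 with etomoxir.

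Among genes without overlap in any arm, the leading falls follow, and whether they share functions was not tested. Fabp9 and Pmp2, fatty acid binding proteins chosen after their values were seen, passed with lower estimates (log2FC -3.73 and -3.61) but had overlapping groups, and were lower in 5 of 7 pairs. Card6, of a family of caspase recruitment proteins, had 92.3 to 218 normalized counts (median 142) in the samples without SR-3420 and 18.7 to 44.0 (median 24.5) in those with it. The groups did not overlap (log2FC -2.37, SE 0.18, adjusted p = 2.69e-08). Slc43a2, a transporter of neutral amino acids, had 746 to 1266 normalized counts without SR-3420 (median 951) and 134 to 367 with it (median 211), without overlap (log2FC -2.08, SE 0.13, adjusted p = 3.60e-09). Nt5e, the surface enzyme that makes adenosine from AMP, had 104 to 353 normalized counts without SR-3420 (median 250.04) and 35.1 to 103 with it (median 51.7). Its lowest untreated sample, of triacsin C, came close to the highest treated one (log2FC -2.03, SE 0.12, adjusted p = 1.34e-09). Acsm5, a medium-chain acyl-CoA synthetase of mitochondria, had 82.0 to 137 normalized counts without SR-3420 (median 103) and 14.3 to 50.7 with it (median 28.7), without overlap (log2FC -1.85, SE 0.22, adjusted p = 3.44e-06). Cyp2e1, a cytochrome P450, fell with a log2FC of -1.95 (SE 0.15, adjusted p = 2.94e-08), and P2rx6, a purinergic receptor subunit, with one of -1.94 (SE 0.22, adjusted p = 1.78e-06). Tmem220, Pm20d2, Rgs9bp, Tmem179 and Trim14 had log2FCs of -1.92, -1.86, -1.86, -1.83 and -1.83, with adjusted p from 3.23e-09 to 0.000188.

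Most members of the growth and matrix lists rose, beside 29.8% higher and 30.2% lower over all genes tested. Of 38 ribosome biogenesis genes, 31 rose, 1 fell and 6 did not pass, with a median log2FC of 0.47. Nop58, a core protein of small nucleolar particles, had a log2FC of 0.95 (SE 0.11, adjusted p = 3.80e-06) and Rrp1b one of 0.80 (SE 0.07), while Bop1, which overlaps other genes, did not pass (log2FC 0.02, SE 0.11, adjusted p = 0.89). Of 26 cell cycle and replication genes, 23 rose, 0 fell and 3 did not pass, with a median log2FC of 0.46. Rrm2, of deoxynucleotide synthesis, had 1143 to 2146 normalized counts without SR-3420 (median 1683) and 1922 to 4837 with it (median 3319), with overlap (log2FC 0.98, SE 0.10, adjusted p = 9.64e-07). Mcm3 of the replicative helicase had 1889.9 to 3160.0 normalized counts without SR-3420 (median 2703) and 3410.0 to 5683 with it (median 4660.0), without (log2FC 0.81, SE 0.06, adjusted p = 2.75e-08), and the mitotic kinase gene Plk1 did not pass (log2FC 0.12, SE 0.09, adjusted p = 0.241). Collagen and matrix genes rose in 22 of 22 cases (median log2FC 0.83), 15 of them in all 3 arms, beside 8.56% of all genes tested. Tnc, which encodes tenascin C, had 4249 to 8812 normalized counts without SR-3420 (median 6179.6) and 10417 to 26170.1 with it (median 17709), without overlap (log2FC 1.40, SE 0.07, adjusted p = 3.61e-10). Thbs2, Fn1 and Loxl2 rose by log2FCs of 1.34 (SE 0.08), 1.26 (SE 0.09) and 1.17 (SE 0.10).

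Lists of protein turnover had shares near or below the 29.8% higher and 30.2% lower over all genes tested. Of 32 proteasome subunits, 1 rose, 6 fell and 25 did not pass, with a median log2FC of -0.07. Psma7 (log2FC -0.44, SE 0.08, adjusted p = 0.00036) and Psmb5 (log2FC -0.44, SE 0.08, adjusted p = 0.000293) fell, and Psmd2 did not pass (log2FC -0.09, SE 0.07, adjusted p = 0.298). Of 30 autophagy and lysosome genes, 9 rose, 9 fell and 12 did not pass, with a median log2FC of -0.01. Sqstm1, the receptor for selective autophagy, had 10476 to 21171 normalized counts without SR-3420 (median 14277) and 18549 to 44813 with it (median 23759), with overlap (log2FC 0.93, SE 0.08, adjusted p = 1.04e-07). Gpnmb, a lysosomal glycoprotein, rose (log2FC 0.79, SE 0.09, adjusted p = 1.40e-06), the protease gene Ctsd fell (log2FC -0.68, SE 0.11, adjusted p = 6.22e-05), and Lamp2 did not pass (log2FC 0.09, SE 0.09, adjusted p = 0.426).

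**Figure D5:**
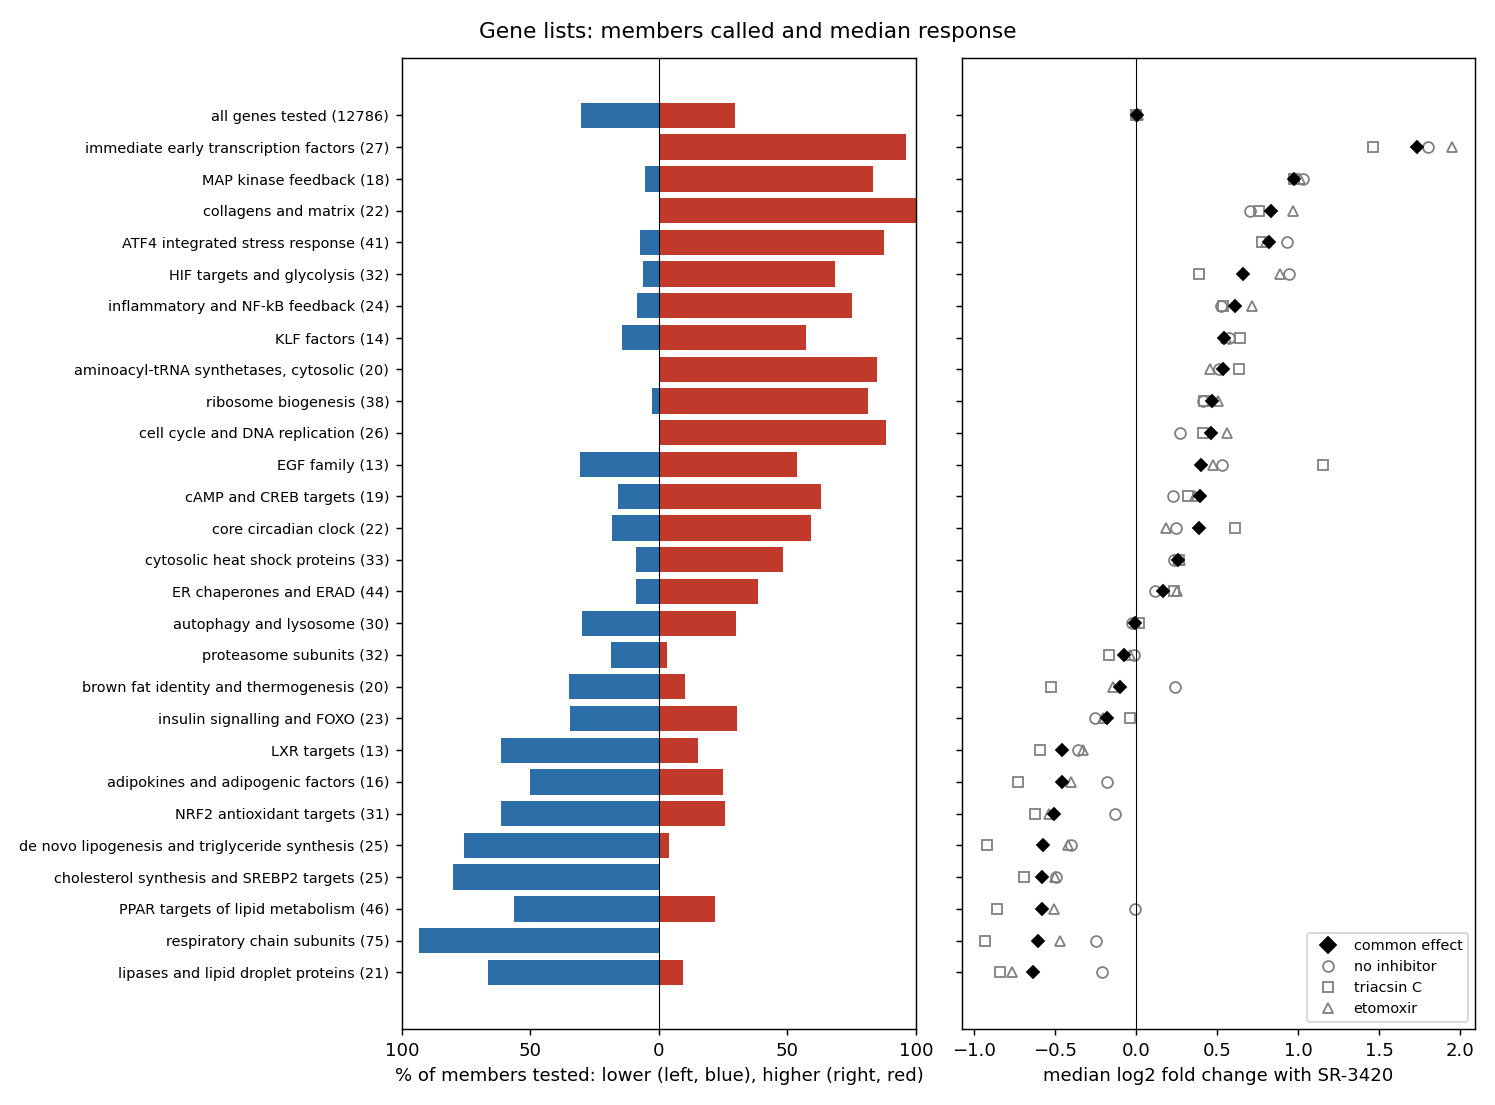
The 27 gene lists and all genes tested, with the number of members tested in brackets: on the left, the percent of members called lower (blue) and higher (red), and on the right, the median log2 fold change in the common effect (black) and in each arm (open symbols). Immediate early factors had the highest median and lipase and lipid droplet genes the lowest, beside a median of 0.00 over all genes tested.

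Gene clusters that the study drew from another of its experiments, with isoproterenol and SR-3420, were counted in the same way, beside 29.8% higher and 30.2% lower over all genes tested. The study chose their genes as activated by isoproterenol, so they are not a sample of all genes. C1, 143 tested, counted 86 higher, 15 lower, 42 not past the threshold, median log2FC 0.65. C2, 95 tested, counted 49 higher, 12 lower, 34 not past the threshold, median log2FC 0.28. In C3, 183 tested, 111 rose, 23 fell and 49 did not pass, with a median log2FC of 0.49. In C4, 175 tested, 121 rose, 20 fell and 34 did not pass, with a median log2FC of 0.54. By arm, the median of C1 was 0.67 with no inhibitor, 0.62 with triacsin C and 0.56 with etomoxir.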

How the data were processed

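RNA from 16 cultures was sequenced, and the deposited table holds counts per gene for 20295 genes and the counted length of each gene. As the authors describe it, reads were aligned to mm9 with STAR 2.4.2a, reduced with HOMER to 1 read per position and read length, and summed over genes without pooling replicates; strand use in counting was not stated. From these counts edgeR 4.0.16 (with limma 3.58.1, in R 4.3.3) gave TMM factors and tested the 12786 genes that passed filterByExpr by group, which left out 7509. A quasi-likelihood F test took the coefficient of SR-3420 beside arm and replicate number. Effects in each arm, and their interaction, came from a fit of 6 group means and the replicate number. Adjusted p is Benjamini-Hochberg over the genes tested, with a threshold of 0.05, and at least 2-fold means an absolute log2FC of at least 1 as well. A normalized count is the count divided by the TMM library size relative to its geometric mean. The procedure was tested on simulated data.

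Total counts per sample had a median of 13602886, and replicates of a group differed by 4.37 to 156 times the variance that counting alone gives, over 14 pairs of samples. Genes named are the 12 leading rises and the 12 leading falls among genes called, averaging 50 or more normalized counts, whose treated and untreated samples did not overlap in any arm; the 4 called members of each list with the largest change and its most abundant member that was not called; and Abhd5, Pnpla2 and Ucp1. Not all of these 161 genes are described. The comparison and the gene lists were chosen with earlier results of these data known, while samples entered the comparison by treatment alone. Of the lists' 774 entries 771 were found in the table, with 65 of 65 markers and 654 of 654 entries of the study's clusters and stress markers. Alternatives were other normalizations, count filters, DESeq2 1.42.0, no replicate number, a test against 2-fold, each arm or sample left out, an equal mean of the arms and, chosen after seeing the data, no genes that overlap another gene. Python 3.11.15 with matplotlib 3.10.9 made the figures and searched the promoters.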

Additional observations from a re-analysis of the deposited data

Results flagged for a closer look

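In 11 of 328 groups of 8 samples, over the 161 genes named by rule and 3 values per library (total count, share of the 10 most abundant genes and position on component 1), the highest or lowest sample stood apart: its gap to the nearest sample, divided by the range of the group, passed Dixon's limit, which chance passes in about 1 in 20 groups. With SR-3420, replicate 1 of SR-3420 alone was the highest sample for Esrra (0.554), Kcnk3 (0.659), Uqcr11 (0.585), Pnpla2 (0.547) and Cfd (0.662), and replicate 3 of etomoxir with SR-3420 was the highest for Ebf2 (0.562). Without SR-3420, replicate 2 of triacsin C was the highest for Hspa1a (0.527) and Dusp5 (0.593), replicate 3 of etomoxir was the highest for Ereg (0.548) and the lowest for Csnk1d (0.557), and replicate 2 of vehicle was the highest for Acacb (0.603). These groups of 8 hold 3 arms, so a sample can stand apart through its arm.

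The effect of SR-3420 differed between arms for 30 of the 161 genes by the interaction test, 13 of them also without the replicate number in the model. Those 13 had adjusted p-values of 0.000168 (Atf3), 0.000589 (Bhlhe40), 0.00083 (Cd68), 0.000997 (Angptl4), 0.00106 (Klf10), 0.00143 (Atf6), 0.00169 (Tmem179), 0.00243 (Fgf21), 0.00481 (Hilpda), 0.00603 (Ndufv3), 0.00971 (Gpd1), 0.00976 (Ndrg1) and 0.0125 (Hspa1l). For Tmem179, Ndufv3, Gpd1 and Hspa1l the fall was largest with triacsin C; the rises of Hilpda, Ndrg1 and Bhlhe40 were largest with etomoxir, those of Atf3, Angptl4 and Fgf21 with no inhibitor, and that of Atf6 with triacsin C. The estimates of Cd68 and Klf10 had opposite signs in different arms, whether or not each passed there: Cd68 had log2FCs of 0.70 (no inhibitor), -1.31 (triacsin C) and 0.15 (etomoxir).

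Those that passed only with the replicate number in the model included Rgs9bp (0.00442), Slc16a3 (0.00466), Irs2 (0.00597), Cox8b (0.00695), Sdha (0.0181), Pnpla3 (0.0231), Hspb1 (0.0249), Plin2 (0.0274), Pdk4 (0.0294), Retn (0.0342), Cidec (0.0402), Loxl2 (0.0409), Klf4 (0.0427), Pm20d2 (0.0454), Ctsd (0.0456) and Ciart (0.0461). The estimates of Irs2 also had opposite signs in different arms. What made the arms differ was not tested.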

How the results depend on the processing

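The counts of genes higher and lower in the common effect stayed within 1.5 times under the alternatives run: 3443 to 3913 and 3564 to 3909 with 1 sample left out, and 2935 and 3096 without the replicate block. At least 2-fold, they were 449 to 538 and 703 to 935 with 1 sample left out, and 489 and 745 without the block; the test against 2-fold gave 203 and 102, a stricter question, and at least 10 counts in every sample gave 483 lower genes, with fewer genes tested. Genes higher in all 3 arms numbered 523 without the block and 520 to 1404 with 1 sample left out (582 without vehicle 2, 544 without vehicle 3, 520 without SR-3420 alone 3). Genes lower in all 3 arms numbered 269 without the block and 219 to 1126 (241 without vehicle 2, 326 without vehicle 3, 374 without SR-3420 alone 1, 219 without SR-3420 alone 3, 1126 without triacsin C 1). Where a group of 2 lost a sample, the lone sample was assumed to vary like the other groups. Genes with an interaction numbered 298 without the block, 2000.0 with DESeq2 and 482 to 4495 with 1 sample left out: 620.0 without vehicle 3, 810.0 without SR-3420 alone 1, 4495, 523 and 748 without triacsin C 1, 2 and 3, 482, 744 and 648 without triacsin C with SR-3420 1, 2 and 3, 827 without etomoxir 2, and 1968 without etomoxir with SR-3420 2. The cause was not tested. Of 132 genes named and called, 76 did not pass the test against 2-fold and 6 lost their call elsewhere: Psma4, Psma1 and Kcnk3 without the block, Cd14, Kcnk3, Uqcr11 and Cideb without the etomoxir arm, and Kcnk3 also without the triacsin C arm or without triacsin C 3, triacsin C with SR-3420 2 or 3, or etomoxir with SR-3420 2. Named genes that had not passed also became called: 8 without the no-inhibitor arm, 8 without triacsin C 1, 6 with DESeq2, 6 with total counts only, and 0 to 4 under each of the others, so that their lack of a call depends on the setting. The median of the insulin and FOXO list changed sign, to 0.00649 without the etomoxir arm. Without the triacsin C arm those of macrophage markers (-0.38 to 0.18) and brown adipocyte markers (-0.05 to 0.33) changed sign too, and 4 other list medians moved without a change of sign. Over 35 pairs of same-numbered samples the residuals correlated at 0.365 on average. The mean over 71 other pairs (-0.180) is no separate contrast, because residuals centred within groups make it largely follow from the first. Correlations were above 0.1 in 27 of the 35, and the 8 exceptions (down to -0.267) each involve triacsin C 1 or etomoxir with SR-3420 2. They were also above 0.1 in 25 of the 71 other pairs, up to 0.709. Most same-numbered samples therefore go together, but so do some with different numbers, so the numbers are not shown to pair all samples. The block was kept because the comparison names it. The no-inhibitor arm had 2 samples on a side and a median SE of 0.19; the part of this in the counts over all 3 arms was not tested.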
